A study of Homo sapiens with 15 samples.

Results

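The miR-130/miR-301/miR-454 family comprised 6 of the 1707 mature miRNAs counted in U87-MG, a glioblastoma line long established in culture. The members were taken by name, with no threshold on their values, and were hsa-miR-130a-3p, hsa-miR-130b-3p, hsa-miR-130b-5p, hsa-miR-301a-3p, hsa-miR-301b-3p and hsa-miR-454-3p. Counts were compared between 5 groups of 3 libraries, each from cells cultured for 24 h. Control cells, whose genotype was given as WT, were cultured in 21% O2 (normoxia) and in 1% O2 (hypoxia), and the 3 knockout (KO) groups, named HIF1α-KO, HIF2α-KO and, for loss of both factors, HIF1α/HIF2α-KO, were all kept in 1% O2. The knockouts were made with CRISPR/Cas9 delivered by a lentiviral vector, and the methods describe no selection of single clones. HIF1α is encoded by HIF1A and HIF2α by EPAS1, and neither mRNA is measured by this assay, so the knockouts were not checked in these libraries. No source used here states that the replicates came from separate cultures, so all p-values measure the spread between libraries, which may be technical.

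A mature miRNA guides the Argonaute protein to messenger RNAs that pair with its seed, the bases near its 5′ end, and strands with a common seed are grouped in a family because they can recognise the same sites. Each precursor hairpin yields a 5p and a 3p strand, of which usually the more abundant is retained in Argonaute. In the miR-130/miR-301/miR-454 family the family seed lies on the 3p strands, and PPARG, a transcription factor of fat and vascular cells, is a well-known target. The members from chromosome 17 are encoded within SKA2, a gene of the mitotic spindle and kinetochore.

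The RefSeq sequences (GRCh38.p14) of 5 of the 6 members were matched by name, and they show which strands can share targets. miR-130a-3p had no match, so its seed is not shown here and was taken from its place in the family. Bases 2 to 8, the seed, are in capitals.
hsa-miR-130b-3p: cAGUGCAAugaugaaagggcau
hsa-miR-301a-3p: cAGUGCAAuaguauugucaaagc
hsa-miR-301b-3p: cAGUGCAAugauauugucaaagc
hsa-miR-454-3p: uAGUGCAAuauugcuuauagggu
hsa-miR-130b-5p: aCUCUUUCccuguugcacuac
The 4 matched 3p members had the same seed, AGUGCAA, whereas miR-130b-5p, which lies on the other arm of the miR-130b hairpin, had the seed CUCUUUC. Counted from 1 at the 5′ end, miR-301a-3p and miR-301b-3p differed at A10G and G11A and were 91.3% identical over 23 bases, so reads could have been divided between them in counting, and their separate counts are uncertain. Of the 6 human miRNAs in the table with the seed AGUGCAA, 4 were listed in the counts, and the others, miR-3666 and miR-4295, were not.

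The miR-130b hairpin is printed because the difference between its arms was the largest feature of the family by count. The capitals mark the 5p and then the 3p strand, at positions 13 to 33 and 51 to 72 of the 82 bases, and the hairpin lies at chr22:21653304-21653385 on the plus strand of GRCh38.
MIR130B: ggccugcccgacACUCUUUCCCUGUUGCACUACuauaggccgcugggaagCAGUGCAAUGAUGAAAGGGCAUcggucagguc
In the GENCODE v29 annotation of GRCh38, MIR130B overlapped an exon of the noncoding gene AP000553.1, and MIR301B lay 245 bases before it, at chr22:21652981-21653058, in an intron of its only transcript that spans both. MIR454 (chr17:59137758-59137872) and MIR301A (chr17:59151136-59151221), both on the minus strand, were 13263 bases apart and lay in introns in each of the 10 transcripts of SKA2 that span them. MIR130A lay at chr11:57641198-57641286 on the plus strand, in introns of the 2 transcripts of the noncoding gene AP000662.1 that span it.

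Library totals ranged from 10360337 to 22496373 counts, and the floor of 3 counts, below which a miRNA was read as not detectable, was worth at most 0.290 CPM, or counts per 1000000 counts of a library. This floor and the binomial intervals below cover counting error only. Of the 6 members, 4 passed the filter on low counts and were tested among 562 miRNAs. The glioma miRNAs miR-21-5p, miR-10b-5p and miR-9-5p summed to 171384 to 269892 normalised CPM per library. The endothelial miRNAs miR-126-3p and miR-126-5p summed to 14.5 to 51.9 CPM in 9 libraries and to 3.90 to 6.95 CPM in the other 6, and both sets held hypoxic control libraries and libraries of each KO group, whereas the 3 normoxic libraries were all in the higher set. The summed levels were 4.45 to 22.8 normalised CPM for 5 blood miRNAs, 36.8 to 99.4 for 5 epithelial, 1.63 to 45.1 for 3 muscle and 251 to 430 for 2 neuronal miRNAs. The neuronal sum was almost wholly miR-129-5p, since miR-124-3p had at most 6 counts per library. In the other sums, miR-206 of the muscle and miR-223-3p of the blood miRNAs had at most 3 counts per library.

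miR-130b-5p was by far the most abundant member. It held 57.4% to 79.5% of the counts of the 6 members in a library, with a median of 72.8%, and its mean of 143 normalised CPM (CPM with library totals scaled by TMM) over the 15 libraries ranked 109 among the miRNAs listed. Next came miR-454-3p with a mean of 26.2, miR-130a-3p with 18.5 and miR-130b-3p with 13.2 normalised CPM. All 4 had more than the floor of 3 counts in all 15 libraries. miR-301b-3p and miR-301a-3p were near the limit of detection, with 0 to 5 and 0 to 4 counts per library and 31 and 27 counts in all. These comparisons between miRNAs are of reads per mature strand of similar length, and how efficiently each sequence was captured in the libraries was not measured.

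**Figure D1:**
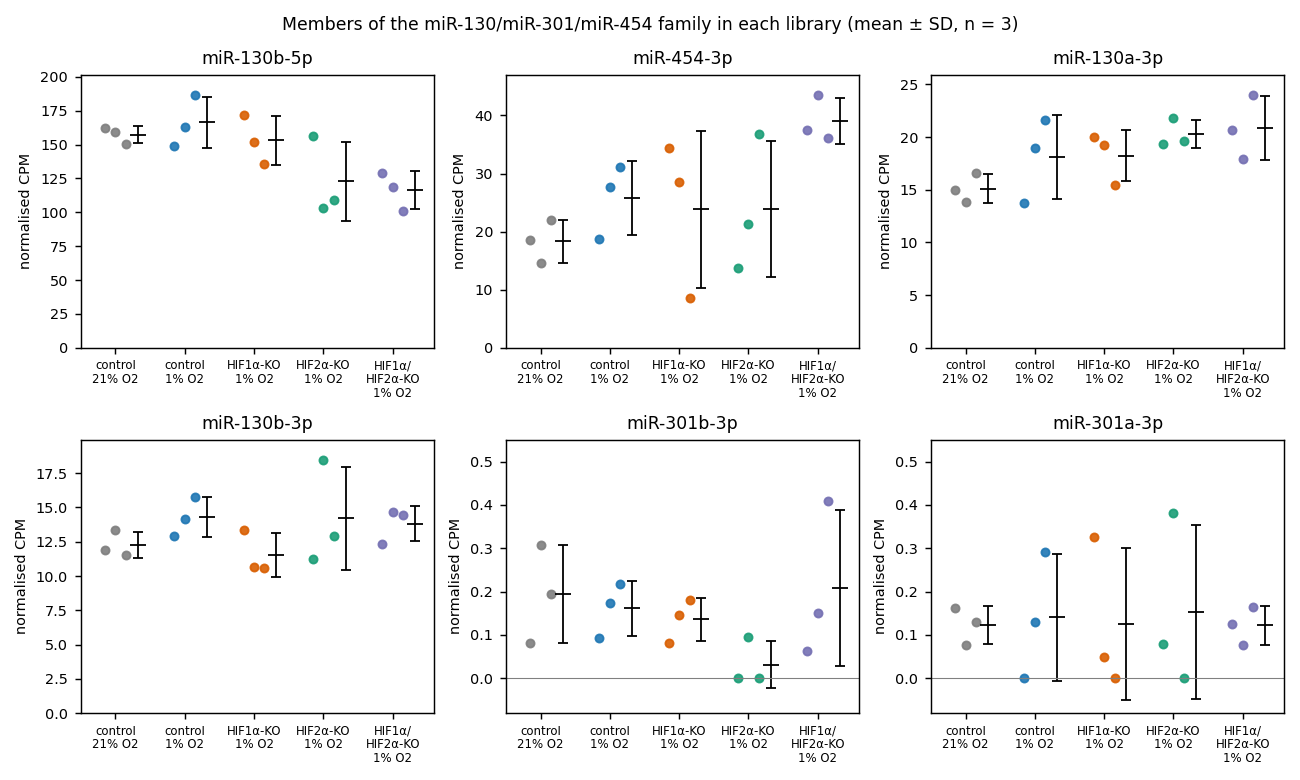
Normalised CPM (vertical axes, linear) of each member in each library (points), by group, with the mean ± SD of the 3 libraries beside them. miR-130b-5p lies at 101 to 129 in the HIF1α/HIF2α-KO libraries, below the 149 to 187 of the hypoxic control libraries, and miR-454-3p at 36.1 to 43.6, above 18.7 to 31.1.

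The strands that carry the family seed had a lower summed level than miR-130b-5p alone. The 3p members summed to 34.9 to 76.4 normalised CPM per library, from 388 to 1414 counts, against 101 to 187 for miR-130b-5p. By mean level, miR-454-3p, miR-130a-3p and miR-130b-3p ranked 183, 204 and 225 among the 1707 miRNAs listed. miR-454-3p gave 24.7% to 57.0% of these counts, miR-130a-3p 23.4% to 44.3% and miR-130b-3p 17.4% to 31.7%, whereas miR-301a-3p and miR-301b-3p gave at most 0.613% and 0.733%. The sum was 46.0 ± 4.16 normalised CPM (SD, n = 3) in normoxic control cells and 58.5 ± 12 in hypoxic control cells. Of the KO groups, HIF1α-KO cells had 53.9 ± 17.2, HIF2α-KO cells 58.6 ± 12.8 and HIF1α/HIF2α-KO cells 74.1 ± 2.93. The HIF1α/HIF2α-KO libraries, at 70.8 to 76.4, lay above all others, of which the highest was 69.3. The sums in the single KO and control groups under hypoxia overlapped, and no test was made of these sums.

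**Figure D2:**
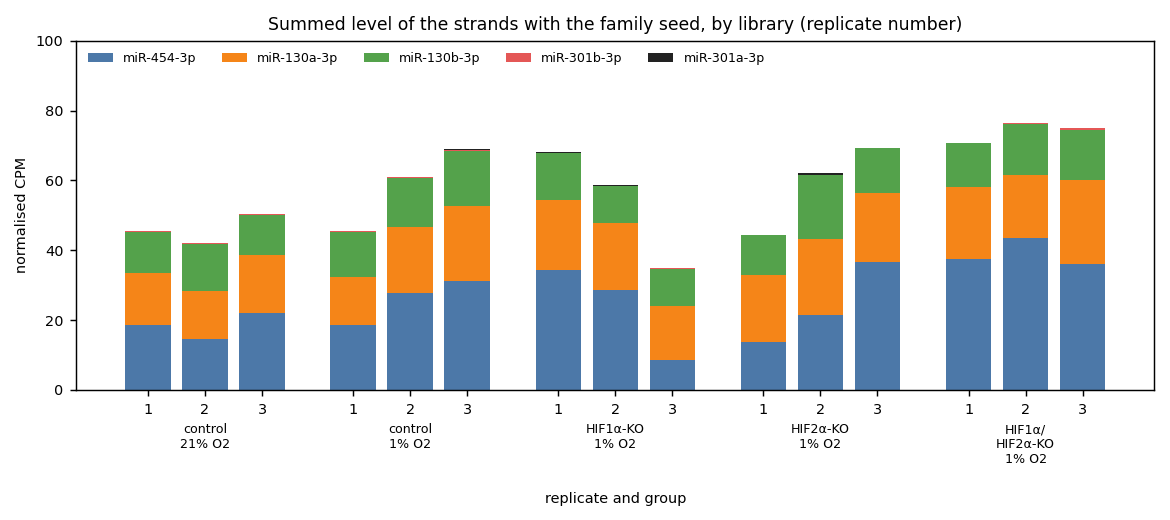
Normalised CPM (vertical axis) of the 3p members, stacked for each library, with libraries along the horizontal axis by group and replicate number. miR-454-3p, miR-130a-3p and miR-130b-3p make up nearly the whole of each bar, and the bars span 34.9 to 76.4.

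The strands of a second family overlap with this seed by a shift of a single base. The miR-148/miR-152 family, regulators of DNA methyltransferase and other mRNAs, has the seed CAGUGCA, which is bases 1 to 7 of miR-130b-3p, miR-301a-3p and miR-301b-3p, and 2 of its members are shown for the comparison.
hsa-miR-148b-3p: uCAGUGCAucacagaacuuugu
hsa-miR-152-3p: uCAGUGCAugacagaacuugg
Together, miR-148a-3p, miR-148b-3p and miR-152-3p reached 2984 to 4183 normalised CPM per library, which was 41.3 to 98.7 times the sum of the 3p members of the miR-130/miR-301/miR-454 family. None of the 3 had an adjusted p under 0.05 in any comparison. miR-148a-3p varied most between libraries of a group, with 222, 33.5 and 33.2 normalised CPM in the hypoxic control cells, where the first of these libraries was in the set with more miR-126.

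The 2 arms of each hairpin were unequal, and not in the same direction. From MIR130B, 30167 counts came from the 5p strand and 2723 from the 3p strand, and the 5p strand was more abundant in 15 of 15 libraries, at 84.8% to 93.5% of the counts of the hairpin. From MIR301A, miR-301a-5p had 861 counts and miR-301a-3p 27, and the 5p strand was again more abundant in 15 of 15 libraries. From MIR130A and MIR454 the 3p strand prevailed in 15 of 15 libraries, with a 5p share of 15.6% to 33.9% and of 5.38% to 20.1%. MIR301B gave 52 counts of the 5p and 31 of the 3p strand, too few to compare arms between groups. Of the pair encoded 245 bases apart, MIR130B gave 32890 counts over both arms and MIR301B 83. Of the pair within SKA2, MIR454 gave 6221 and MIR301A 888. How reads that match both miR-301a-3p and miR-301b-3p were counted is not stated. The arm shares and totals of MIR301A and MIR301B are therefore as uncertain as these 3p counts.

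**Figure D3:**
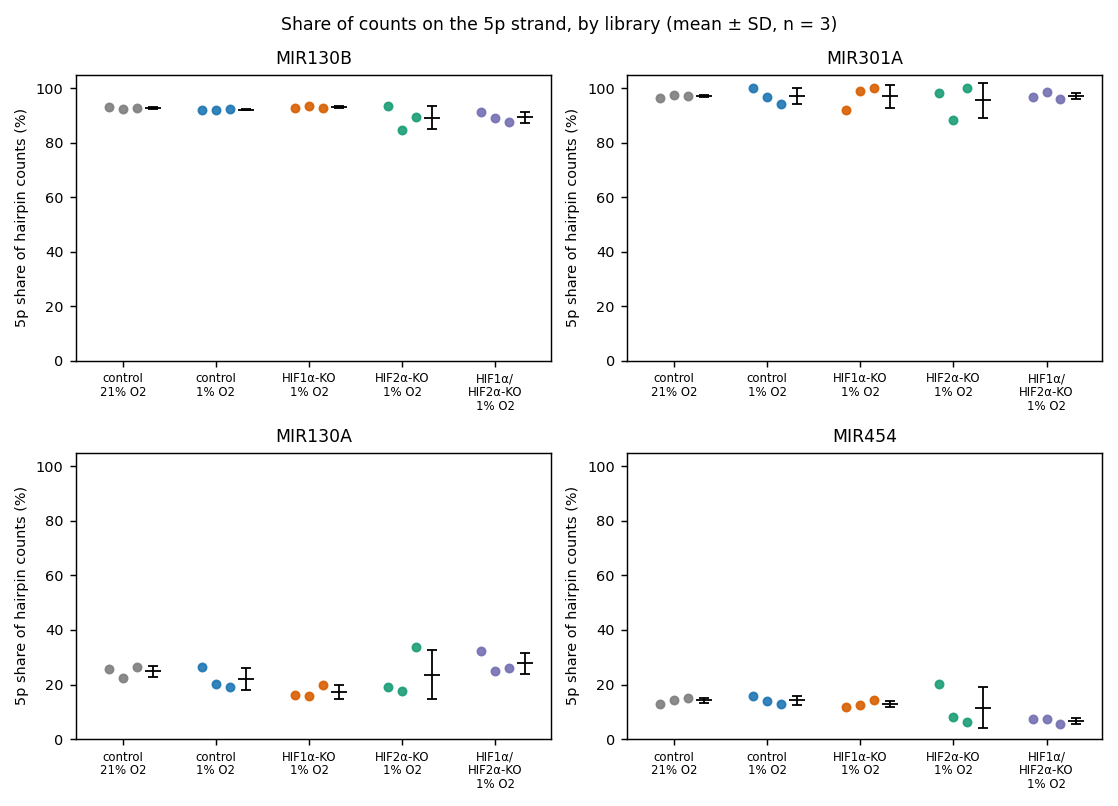
Share of the counts of a hairpin that came from its 5p strand (vertical axes, percent), in each library (points) by group, with the mean ± SD of the 3 libraries. MIR130B and MIR301A lie near the top, at 84.8% or more, and MIR130A and MIR454 near the bottom, at 33.9% or less, with MIR454 at 5.38% to 7.45% in the HIF1α/HIF2α-KO libraries. The 3p counts of MIR301A are uncertain, since miR-301a-3p closely resembles miR-301b-3p.

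Under hypoxia, HIF1α-KO cells were compared with control cells to ask whether the loss of HIF1α changed the family. The comparisons of the 3 KO groups with control cells all used the same 3 hypoxic control libraries. In edgeR, 0 of the 4 members tested had an adjusted p under 0.05, and 0 had an unadjusted p under 0.05. Over all miRNAs tested, 1.25% had an adjusted p under 0.05, 11.9% had an unadjusted p under 0.05, and in 21.5% the ranges of the groups did not overlap, against 0 of the 4 members. DESeq2 and limma also called 0 members. miR-130b-3p had the lowest log2 fold change, -0.31 (SE 0.20, adjusted p = 0.597 in edgeR), with 10.6 to 13.4 normalised CPM in HIF1α-KO and 12.9 to 15.8 in control cells. miR-130a-3p was at 18.2 ± 2.42 and 18.1 ± 4.01 normalised CPM (SD, n = 3), and its log2 fold change was 0.01, with a 95% interval from -0.40 to 0.42. For miR-130b-5p the log2 fold change was -0.12, with an interval from -0.48 to 0.25. The median log2 fold change was -0.12 over the 4 members and -0.05 over all miRNAs tested.

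miR-454-3p was less uniform in HIF1α-KO cells than any other member tested. Its normalised CPM was 34.5, 28.5 and 8.63 in replicates 1 to 3 of HIF1α-KO cells, and 18.7, 27.7 and 31.1 in hypoxic control cells. The third HIF1α-KO library had the lowest value of all 15 and came from 96 counts, and it was in the set with more miR-126. The log2 fold change was -0.11 with an interval from -1.03 to 0.80, which reaches beyond a change of 1 on the log2 scale only on the lower side. Without that library the log2 fold change was 0.29.

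In HIF2α-KO cells, miR-130b-5p was lower than in control cells in 2 of 3 libraries. It was at 157, 103 and 109 normalised CPM in HIF2α-KO cells and at 149, 163 and 187 in hypoxic control cells, so that the first HIF2α-KO library lay within the control range and the other 2 lay below it. The log2 fold change was -0.44 (SE 0.17, 95% interval -0.80 to -0.07), with an unadjusted p of 0.0228 and an adjusted p of 0.269 in edgeR. It was the only member with an unadjusted p under 0.05, against 15.3% of all miRNAs tested. No member, 0 of 4, had an adjusted p under 0.05 in edgeR, DESeq2 or limma, and the share of all miRNAs was 0.0% in edgeR, with 86 at an unadjusted p under 0.05. Without the first HIF2α-KO library, miR-130b-5p had a log2 fold change of -0.66 and an adjusted p of 0.0497 in edgeR, and this was the only call of a member in any alternative. The ranges of the groups overlapped for all 4 members, and did not overlap for 16.4% of all miRNAs.

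The 3p members did not differ detectably between HIF2α-KO and control cells. miR-130a-3p was at 19.3, 21.8 and 19.7 normalised CPM in HIF2α-KO cells, all within the range of the control cells, 13.7 to 21.6, but for the second library. The log2 fold change was 0.16 for miR-130a-3p (95% interval -0.25 to 0.58), -0.01 for miR-130b-3p (-0.43 to 0.42) and -0.11 for miR-454-3p (-1.03 to 0.80). miR-454-3p was again dispersed, at 13.7, 21.3 and 36.8 normalised CPM. miR-301b-3p had 0, 1 and 0 counts in the HIF2α-KO libraries and 1 to 5 in all others, a difference within counts at or near the floor of 3. In a fit without the filter on low counts its lowest adjusted p over the 8 comparisons was 0.541 in edgeR, and that of miR-301a-3p was 1.00.

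The HIF1α/HIF2α-KO cells had the lowest mean level of miR-130b-5p and the highest of miR-454-3p among the 5 groups. miR-130b-5p was at 129, 119 and 101 normalised CPM, below each of the 3 hypoxic control libraries at 149 to 187. The log2 fold change against control cells was -0.52 (SE 0.17, 95% interval -0.88 to -0.15), with an unadjusted p of 0.00922 and an adjusted p of 0.0741 in edgeR, so the difference did not pass the threshold of 0.05. Over 14 alternatives its adjusted p ranged from 0.0634 in DESeq2 to 0.388 in the fit of all 1707 miRNAs, and its log2 fold change from -0.59 to -0.40. In the fit with the miR-126 set as a covariate the log2 fold change was -0.53. The exact permutation test on normalised CPM gave a two-sided p of 0.1, the smallest that 3 libraries against 3 allow.

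miR-454-3p was at 37.5, 43.6 and 36.1 normalised CPM in HIF1α/HIF2α-KO cells, above all 3 hypoxic control libraries. The fitted log2 fold change was 0.59 with a wide interval, from -0.32 to 1.51, and an adjusted p of 0.450 in edgeR. With the miR-126 set as a covariate, the fitted value was 0.81, with an adjusted p of 0.231 in edgeR. miR-130a-3p (20.9 ± 3.07 against 18.1 ± 4.01) and miR-130b-3p (13.8 ± 1.29 against 14.3 ± 1.45) overlapped between the groups, with log2 fold changes of 0.20 and -0.05. In this comparison 0 of 4 members had an adjusted p under 0.05 in edgeR, DESeq2 or limma, against 5.87% of all miRNAs in edgeR, and 1 had an unadjusted p under 0.05, against 24.4%. The ranges did not overlap for 2 of the 4, against 30.4% of all miRNAs, of which 16.7% were lower and 13.7% higher in HIF1α/HIF2α-KO cells.

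The log2 fold changes of the 2 strands of MIR454 had opposite signs in HIF1α/HIF2α-KO cells. miR-454-5p was at 3.02, 3.41 and 2.05 normalised CPM, below the hypoxic control libraries at 3.50, 4.49 and 4.51, with a log2 fold change of -0.56 (SE 0.36, adjusted p = 0.403 in edgeR). The 5p share of MIR454 counts was 6.70% ± 1.15 (SD, n = 3) in HIF1α/HIF2α-KO cells and 14.1% ± 1.55 in hypoxic control cells, and the groups did not overlap. The lowest share was 5.38%, with a 95% Wilson interval from 3.67% to 7.82%, and the lowest in the control cells was 12.7%, from 10.0% to 15.9%. The log2 ratio of the 5p to the 3p strand was -3.82 ± 0.28 and -2.61 ± 0.18 in these groups, a difference of -1.21. HIF2α-KO cells spanned both levels, at 20.1%, 8.20% and 6.07%, and HIF1α-KO cells were at 11.9% to 14.3%.

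The 5p share of MIR130B differed less but with little spread in the control cells. It was 92.0%, 92.0% and 92.2% in the hypoxic control libraries, and 91.3%, 89.0% and 87.5% in the HIF1α/HIF2α-KO libraries. The log2 ratio of the 5p to the 3p strand was 3.07 ± 0.29 and 3.54 ± 0.02 in these groups. In HIF2α-KO cells the share was 93.3%, 84.8% and 89.4%, and the library at 93.3% was also the one with miR-130b-5p at 157 normalised CPM. Ratios between arms of a hairpin do not depend on how the libraries are scaled. Over 21 comparisons of arm ratios, for MIR130A, MIR130B and MIR454 in 7 comparisons each, the groups did not overlap in 7, or 33.3%, against 16.2% of 973 comparisons over the 139 hairpins with both strands tested and counted in every library. In HIF1α/HIF2α-KO against control cells this held for 2 of the 3 hairpins (MIR130B and MIR454), against 20.9% of the 139. It also held for MIR130B in HIF1α-KO against control cells and in hypoxia against normoxia, where the log2 ratios differed by 0.19 and -0.15. In both, Wilson intervals of single libraries overlapped with those of the hypoxic control libraries. They were 91.4% to 93.9% in the third HIF1α-KO and 91.1% to 93.3% in the second normoxic library. The comparisons share libraries, and no test was made of the shares of comparisons without overlap. In each of the 7 the exact permutation p was 0.1, the smallest possible, and the adjusted p over the 21 was 0.3, so that no arm ratio passed the threshold of 0.05.

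For MIR130A, the 5p strand differed more between groups than the 3p strand. miR-130a-5p, the less abundant strand, was at 3.83, 3.57 and 3.86 normalised CPM in HIF1α-KO cells, 4.98, 4.75 and 5.10 in hypoxic control cells and 9.82, 5.91 and 8.53 in HIF1α/HIF2α-KO cells, with no overlap between these 3 groups. The values came from 43 to 73, 54 to 110 and 78 to 156 counts per library, in this order, and carry counting error. Between HIF1α-KO and hypoxic control cells the log2 fold change was -0.40 (SE 0.30, adjusted p = 0.668 in edgeR), and the MIR130A arm ratios overlapped. In the comparisons of these groups, 21.4% to 30.4% of all miRNAs did not overlap. miR-130a-5p was at 4.54 to 10.1 in HIF2α-KO and 4.01 to 5.93 in normoxic control cells, both overlapping with hypoxic control and HIF1α/HIF2α-KO cells. Between HIF1α/HIF2α-KO and HIF1α-KO cells its log2 fold change was 1.11 (SE 0.29, adjusted p = 0.0712 in edgeR), and against control cells it was 0.71 (adjusted p = 0.138). Its partner miR-130a-3p changed by 0.19 and 0.20 in the same comparisons, both with intervals that hold 0. miR-301a-5p differed little, at 2.85 to 4.88 normalised CPM over all libraries. None of the 3 strand partners tested had an adjusted p under 0.05 in any of the 8 comparisons in edgeR. The fourth, miR-301b-5p, had 2 to 7 counts per library.

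The KO groups were also compared with each other. Between HIF2α-KO and HIF1α-KO cells, 0 of 4 members had an adjusted p under 0.05 in edgeR, DESeq2 or limma, against 1.07% of all miRNAs in edgeR, and 0 had an unadjusted p under 0.05, against 17.4%. The ranges overlapped for all 4, and did not overlap for 20.5% of all miRNAs. The largest difference in size was that of miR-130b-5p, with a log2 fold change of -0.32 (SE 0.17, adjusted p = 0.343 in edgeR). Between HIF1α/HIF2α-KO and HIF1α-KO cells, again 0 of 4 had an adjusted p under 0.05 in the 3 tools, against 1.42% of all miRNAs in edgeR. miR-130b-5p, at 135 to 172 normalised CPM in HIF1α-KO cells, had a log2 fold change of -0.40 (SE 0.17) with an unadjusted p of 0.0354 and an adjusted p of 0.285 in edgeR, and was the only member with an unadjusted p under 0.05, against 14.9% of all miRNAs. The groups did not overlap for miR-130b-5p, which was lower, and miR-454-3p, which was higher, in HIF1α/HIF2α-KO cells, against 21.4% of all miRNAs, 10.9% lower and 10.5% higher.

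For miR-454-3p, the log2 fold change between HIF1α/HIF2α-KO and HIF1α-KO cells was 0.71 (SE 0.43, adjusted p = 0.502 in edgeR), and without the third HIF1α-KO library it was 0.29. Between HIF1α/HIF2α-KO and HIF2α-KO cells it was also 0.71 (SE 0.43, adjusted p = 0.399 in edgeR), with overlapping ranges. In the latter comparison 0 of 4 members had an adjusted p under 0.05 in the 3 tools, against 1.78% of all miRNAs in edgeR, and 0 had an unadjusted p under 0.05, against 19.9%. The ranges overlapped for all 4 members, and did not for 20.5% of all miRNAs. miR-130a-3p, miR-130b-3p and miR-130b-5p had log2 fold changes of 0.04, -0.04 and -0.08 in it, with intervals between -0.47 and 0.46.

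**Figure D4:**
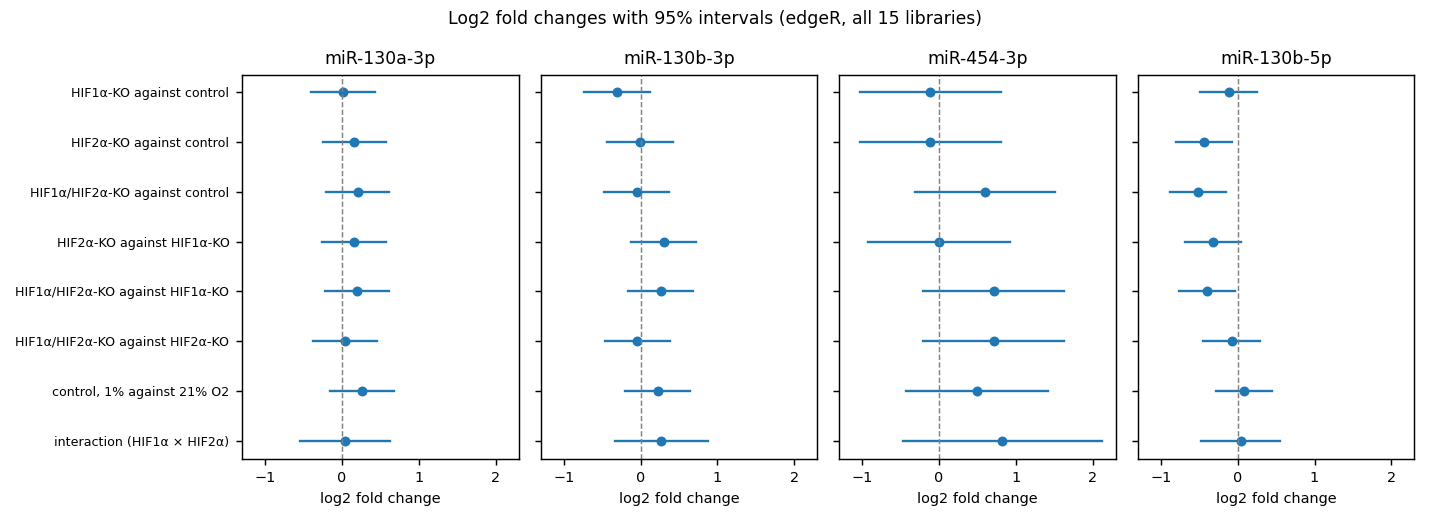
Log2 fold change (horizontal axes) of the 4 members tested in each comparison (rows), as a point with its 95% interval from the edgeR fit of all 15 libraries, with a dashed line at 0. Of the 32 intervals, 29 hold 0, and the 3 others, all below 0 and none with an adjusted p under 0.05, belong to miR-130b-5p, in HIF2α-KO and HIF1α/HIF2α-KO against control cells and in HIF1α/HIF2α-KO against HIF1α-KO cells.

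In control cells, hypoxia and normoxia were compared to ask whether oxygen itself changed the family. The 4 members tested had positive log2 fold changes, from 0.08 for miR-130b-5p to 0.49 for miR-454-3p, with a median of 0.24 against 0.01 over all miRNAs, but the ranges of the groups overlapped for all 4, and did not overlap for 17.8% of all miRNAs. miR-454-3p was at 18.5, 14.6 and 22.0 normalised CPM in normoxia and 18.7, 27.7 and 31.1 in hypoxia. miR-130a-3p was at 14.95, 13.8 and 16.6 in normoxia and 13.7, 18.9 and 21.6 in hypoxia. The first hypoxic library, in which miR-454-3p was within and miR-130a-3p just below the normoxic range, was the only hypoxic control library in the set with more miR-126, as were all 3 normoxic libraries. With that set as a covariate, the log2 fold changes were 0.012 for miR-130a-3p (0.26 without it), 0.033 for miR-130b-3p (0.22), 0.14 for miR-454-3p (0.49) and 0.11 for miR-130b-5p (0.08). In limma they ran from 0.041 for miR-130b-5p to 0.44 for miR-454-3p. In edgeR 0 of 4 members had an adjusted p under 0.05, as did 0.0% of all miRNAs, and 0 of 4 had an unadjusted p under 0.05, against 6.23% of all miRNAs (35 miRNAs). DESeq2 and limma also called 0 members and 0 miRNAs in all.

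The interaction contrast asked whether the change with HIF1α knockout differed with and without HIF2α. It was positive for all 4 members tested, from 0.03 for miR-130a-3p to 0.82 for miR-454-3p (SE 0.60, 95% interval -0.47 to 2.12, adjusted p = 0.729 in edgeR). No member and no miRNA, 0.0%, had an adjusted p under 0.05 in edgeR, DESeq2 or limma, and 0 members and 10.5% of all miRNAs (59 miRNAs) had an unadjusted p under 0.05.

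By comparison, miR-210-3p, the miRNA best known to be induced by HIF, had a log2 fold change of -1.76 (SE 0.31, adjusted p = 0.0126 in edgeR) in HIF1α-KO and of -2.21 (SE 0.32, adjusted p = 0.00402) in HIF1α/HIF2α-KO cells against hypoxic control cells. Against the same control libraries, HIF2α-KO cells gave 0.57 (SE 0.30, adjusted p = 0.400 in edgeR). In control cells it was not detectably higher in hypoxia, at 1153, 1039 and 935 normalised CPM against 1018, 1308 and 1237 in normoxia, with a log2 fold change of -0.19 (95% interval -0.84 to 0.46, adjusted p = 0.841 in edgeR). In the 7 comparisons of groups, the intervals of miR-130a-3p, miR-130b-3p and miR-130b-5p lay between -0.88 and 0.73, whereas that of miR-454-3p reached 1.63. Across the 8 comparisons and 4 members, log2 fold changes ranged from -0.52 to 0.82 and adjusted p-values from 0.0741 to 1.00.

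The order of the groups differed between members. The mean level of miR-130b-5p increased from HIF1α/HIF2α-KO (116 ± 13.9 normalised CPM, SD, n = 3) through HIF2α-KO (123 ± 29.4), HIF1α-KO (153 ± 18.3) and normoxic control (157 ± 6.01) to hypoxic control cells (166 ± 19.2), and each neighbouring pair in this order overlapped. miR-454-3p was lowest in normoxic control cells (18.4 ± 3.70), followed by HIF1α-KO (23.9 ± 13.5), HIF2α-KO (23.9 ± 11.7) and hypoxic control cells (25.8 ± 6.40), which overlapped with their neighbours, and highest in HIF1α/HIF2α-KO cells (39.1 ± 3.97), whose range did not overlap with that of hypoxic control cells. miR-130a-3p ran from 15.1 ± 1.39 in normoxic control to 20.9 ± 3.07 in HIF1α/HIF2α-KO cells, and miR-130b-3p from 11.5 ± 1.58 in HIF1α-KO to 14.3 ± 1.45 in hypoxic control cells, with overlap at each step for both.

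From library to library, the 3p members tested were positively correlated with each other, and miR-130b-5p was weakly and negatively correlated with each of them. Over the 15 libraries, which share their scaling and differ in group and depth, Pearson's r of log2 CPM was 0.61 (Spearman's rho 0.54) between miR-130a-3p and miR-454-3p, 0.44 (0.49) between miR-130a-3p and miR-130b-3p, and 0.41 (0.46) between miR-130b-3p and miR-454-3p. miR-130b-5p had r of -0.37 (rho -0.26) with miR-130a-3p and -0.25 (-0.29) with miR-454-3p. With miR-130b-3p from its own hairpin r was -0.31 but rho only -0.09. With miR-454-5p it had r of 0.67 (rho 0.73). All are descriptions of these libraries.

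The miRNAs whose levels were most like those of miR-454-3p followed it closely. They were miR-577 (r = 0.97, rho = 0.96, n = 15 libraries), miR-365a-3p (r = 0.95, rho = 0.95) and miR-365b-3p (r = 0.95, rho = 0.95), of which the last 2 have identical mature sequences, so reads cannot be told apart between them. Their sequences are shown because they are, like miR-454-3p, poor in G and C.
hsa-miR-577: uAGAUAAAauauugguaccug
hsa-miR-365a-3p: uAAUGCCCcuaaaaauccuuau
GC content was 34.8% in miR-454-3p, 28.6% in miR-577 and 31.8% in miR-365a-3p, against a median of 47.8% (quartiles 40.9% and 57.1%) over the 513 of 562 miRNAs tested with a sequence (91.3%). Whether base composition had a part in these levels was not tested. The miRNAs most like miR-130a-3p were miR-944 (r = 0.85, GC content 31.8%), miR-101-3p (r = 0.82, 33.3%) and miR-29c-3p (r = 0.82, 36.4%). Those most like miR-130b-5p, whose GC content was 47.6%, were miR-411-3p (r = 0.85, 45.5%), miR-4746-5p (r = 0.85, 65.2%) and miR-3157-3p (r = 0.82, 54.5%). miR-130b-3p (45.5%) had weaker likeness, with r of 0.70 for miR-9985, 0.64 for miR-30b-5p and 0.62 for miR-106b-5p.

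Median levels also differed between the sets of libraries with more and less miR-126, with overlapping ranges for each member tested. miR-130a-3p was at 13.7 to 20.7 normalised CPM in the 9 libraries of the higher set (median 16.6) and at 18.9 to 24.0 in the 6 of the lower set (median 20.8). miR-454-3p had medians of 18.7 and 29.8 in the same order, although the highest value, 43.6, was in the higher set. miR-130b-5p had medians of 149 and 158, with ranges of 109 to 162 and 101 to 187. miR-130b-3p had medians of 12.3 and 14.3, with ranges of 10.6 to 14.7 and 10.7 to 18.5. The sets hold unequal numbers of libraries of each group, and the part of the cells or RNA behind miR-126 in the levels of the members was not tested.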

How the data were processed

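Each U87-MG library was assigned to its group by the genotype and oxygen level in the labels. For each library, the authors deposited a table of raw miRNA-Seq counts of mature miRNAs, without normalization. The submitters' processing notes name HISAT2, StringTie and DESeq2, without roles. The genome build is not given in the sources used here. The supplementary methods name quantile normalization with limma, which the counts do not include.

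After filterByExpr by group, which kept 562 of 1707 miRNAs, and TMM scaling, 1 quasi-likelihood model with a term per group was fitted to the libraries of all 5 groups in edgeR 4.0.16 (R 4.3.3). Contrasts were adjusted by Benjamini-Hochberg over the 562, and an adjusted p under 0.05 was called. Normalised CPM use the TMM-scaled library size. Library totals were 10360337 to 22496373, and 3 counts were taken as the floor. No replicates were copies of each other, since the smallest chi-square per degree of freedom between replicates of a group was 25.7. Arm ratios were tested with two-sided exact permutation tests in scipy 1.17.1, and shares of single libraries have 95% Wilson intervals.

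Named miRNAs were the 6 members, their strand partners, miRNAs with the same seed, the miR-148/miR-152 family, miR-210-3p as a reference, and the 3 miRNAs most correlated with each member tested. The members and lists were chosen with earlier results of these data known. In data simulated for HIF1α-KO against control cells (565 miRNAs tested, 200 changed by a log2 fold change of 2), edgeR recovered 96.5% of the changed miRNAs with 3.5% false calls, DESeq2 1.42.0 96% and limma 3.58.1 90.5%. Changes of the size seen for the members, -0.52 to 0.82, were not simulated, so recovery at such sizes is not known. The alternatives were DESeq2 size factors in edgeR, total counts, limma on quantile-normalized log2(CPM + 1), the DESeq2 Wald test, no filter, a fit of only the libraries compared, a block for replicate number, the miR-126 set (split at the largest gap in summed log2 CPM) as a covariate, and each library left out. Sequences came from RefSeq (GRCh38.p14) and positions from GENCODE v29 (GRCh38).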

Additional observations from a re-analysis of the deposited data

How the results depend on the processing

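No member passed the threshold in any of the 8 comparisons under any alternative, except miR-130b-5p in HIF2α-KO against control cells without the first HIF2α-KO library, so the number of members called in that comparison was 0 to 1 when a library was left out. Depth limited miR-301a-3p and miR-301b-3p, which had at most 5 counts per library. The number of all miRNAs called, against which the members were read, moved more. It was 7 in HIF1α-KO (0 to 12 under the alternatives), 0 in HIF2α-KO (0 to 11) and 33 in HIF1α/HIF2α-KO (15 to 61) against control cells. It was 6 (0 to 20) between HIF2α-KO and HIF1α-KO, 8 (0 to 26) between HIF1α/HIF2α-KO and HIF1α-KO, 10 (2 to 21) between HIF1α/HIF2α-KO and HIF2α-KO, 0 (0 to 15) between hypoxia and normoxia and 0 (0 to 5) for the interaction. Total counts moved the median log2 fold change of all miRNAs by -0.14 in HIF2α-KO against control cells, -0.18 between HIF2α-KO and HIF1α-KO, 0.20 between HIF1α/HIF2α-KO and HIF2α-KO and 0.16 for the interaction. They also turned the split of 7 higher and 26 lower miRNAs in HIF1α/HIF2α-KO cells into 25 and 25, of 5 and 1 in HIF2α-KO against HIF1α-KO cells into 2 and 10, and of 3 and 7 in HIF1α/HIF2α-KO against HIF2α-KO cells into 11 and 5.

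Of 472 log2 fold changes of members under the alternatives, 51 changed sign, all where the reported size was at most 0.16, and the cause was not tested. With total counts, log2 fold changes were 0.015 for miR-130b-3p in HIF1α/HIF2α-KO against control cells, -0.027 for miR-130a-3p and -0.18 for miR-454-3p between HIF2α-KO and HIF1α-KO, and 0.16 for miR-130b-3p and 0.11 for miR-130b-5p between HIF1α/HIF2α-KO and HIF2α-KO. With limma they were 0.045 for miR-130b-3p in HIF2α-KO and 0.065 in HIF1α/HIF2α-KO against control cells, -0.018 for miR-130a-3p, 0.020 for miR-130b-3p and 0.026 for miR-130b-5p between HIF1α/HIF2α-KO and HIF2α-KO, and -0.11 for miR-130a-3p in the interaction. With the miR-126 set, they were 0.068 for miR-130b-3p and 0.11 for miR-454-3p in HIF2α-KO and 0.050 for miR-130b-3p in HIF1α/HIF2α-KO against control cells. Without a filter they were -0.080 for miR-454-3p between HIF2α-KO and HIF1α-KO, and 0.041 for miR-130b-3p and 0.0087 for miR-130b-5p between HIF1α/HIF2α-KO and HIF2α-KO. DESeq2 size factors gave 0.00034 for miR-130b-3p in HIF2α-KO against control cells, and only the libraries compared gave -0.045 for miR-454-3p between HIF2α-KO and HIF1α-KO.

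Where leaving out a library changed the sign, the log2 fold changes in HIF1α-KO against control cells ran from -0.12 to 0.18 for miR-130a-3p, from -0.17 to 0.00032 for miR-130b-5p and from -0.44 to 0.29 for miR-454-3p. In HIF2α-KO against control cells they ran from -0.00050 to 0.32 for miR-130a-3p, from -0.26 to 0.12 for miR-130b-3p and from -0.63 to 0.15 for miR-454-3p, and in HIF1α/HIF2α-KO from -0.094 to 0.054 for miR-130b-3p. Between HIF2α-KO and HIF1α-KO they ran from -0.0099 to 0.20 for miR-130a-3p and from -0.52 to 0.33 for miR-454-3p. Between HIF1α/HIF2α-KO and HIF2α-KO the ranges were -0.063 to 0.19 for miR-130a-3p, -0.15 to 0.20 for miR-130b-3p and -0.18 to 0.17 for miR-130b-5p. They were -0.020 to 0.15 for miR-130b-5p between hypoxia and normoxia, and -0.14 to 0.19 for miR-130a-3p and -0.084 to 0.26 for miR-130b-5p in the interaction.

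Whether libraries with the same replicate number share more than that number is not known. The correlations of their deviations from the group means across miRNAs ranged from -0.62 to 0.55 over 21 pairs. Deviations within a group of 3 libraries sum to 0 and the pairs share libraries, so these correlations cannot settle it. With the replicate number as a block, 0 members were called in each of the 8 comparisons, the adjusted p of miR-130b-5p in HIF1α/HIF2α-KO against control cells was 0.0834, and miR-454-3p had a log2 fold change of -0.049 between HIF2α-KO and HIF1α-KO cells.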
